A study of Larimichthys crocea with 4 samples.

Results

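The liver transcriptome of the large yellow croaker (Larimichthys crocea), a farmed marine fish, after thermal stress for 12 h was compared with that of untreated, normally fed fish. Each condition was represented by 1 liver library, so that none of the differences described here has a replicate check and no p-value is given. Transcripts were assembled without a genome into 57216 unigenes, and the 38737 unigenes with 10 or more fragments in at least 1 of the 2 libraries were kept. Fragments were also summed over the unigenes that carried the same KEGG orthology number (an identifier for a gene function), which left 5204 of 5468 numbers after the same minimum. The series holds 2 further liver libraries, from fish under cold stress for 12 h and from fish fasted for 21 days. Their values are set beside those of the thermal stress library for orientation only, since all 3 treated libraries share the same normal feeding library. The temperature of the thermal stress, and whether the RNA of several fish was pooled for it, are not given in the sources used here.

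Cells that are warmed above their usual range accumulate misfolded proteins, which releases heat shock factor 1 from its chaperones and lets it drive the genes of HSP70, HSP90, HSP40 and the small heat shock proteins. HSP70 and its HSP40 (DnaJ) partners bind unfolded chains, HSP90 holds and matures client proteins, the CCT ring folds actin and tubulin, and the small heat shock proteins keep denatured proteins from aggregating. The endoplasmic reticulum has its own set of these chaperones, which the unfolded protein response controls, and the liver depends on it for the secretion of plasma proteins. The liver is also the main site of cholesterol synthesis, whose genes are driven together by the SREBP transcription factors when sterols are scarce.

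The libraries held about 17500000 fragments under normal feeding, 17900000 under thermal stress, 17000000 under cold stress and 19500000 under fasting, and between 51637 and 53984 unigenes were detected in each. Between 51% and 60.0% of the reads had been placed at more than 1 position of the assembly. The 10 hepatocyte markers were all present in every library, and none differed by 2-fold between thermal stress and normal feeding. Their sum was 116851 CPM (fragments per 1000000 fragments of the library) under normal feeding and 94275 under thermal stress. The 12 enzymes of the exocrine pancreas, tissue of which lies within or along the liver of many fishes, summed to 41338 and 42559 CPM, and none of these differed by 2-fold either. Among uniquely placed reads, 2 of the hepatocyte markers and 1 of the pancreas enzymes were lower. The 3 islet hormones did differ, from 0.457 CPM in all under normal feeding to 363 under thermal stress, and are described at the end. The normal feeding library stood apart in a further way. A total of 119 unigenes had their best protein hit in 15 genera of moths, butterflies and earthworms, and they took 3070 fragments under normal feeding against 289, 195 and 129 under thermal stress, cold stress and fasting. Of these unigenes, 89 had 10 or more fragments under normal feeding and 0 in each of the other libraries.

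A gene or unigene was called higher or lower when its CPM differed at least 2-fold and the 95% exact (Clopper-Pearson) interval of the ratio excluded no difference. This interval, printed after each fold change, covers counting error only and not the spread between fish. By this rule 358 of the 5204 KEGG orthology numbers (6.88%) were higher and 561 (10.8%) were lower under thermal stress. That is 17.7% called in either direction. Among single unigenes, 4798 of 38737 (12.4%) were higher and 6872 (17.7%) lower, or 30.1% in either direction. The median log2 ratio was -0.13 over all numbers and -0.14 over all unigenes. The balance of directions depended on the scaling. Lower calls made up 61.0% of the numbers called with library totals, 49.2% with TMM factors (465 higher, 451 lower) and 48.6% with median-of-ratios size factors (470 higher, 444 lower), since these shifted every log2 ratio up by 0.14 and 0.15. With TMM scaling the median over all numbers was 0.01.

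**Figure D1:**
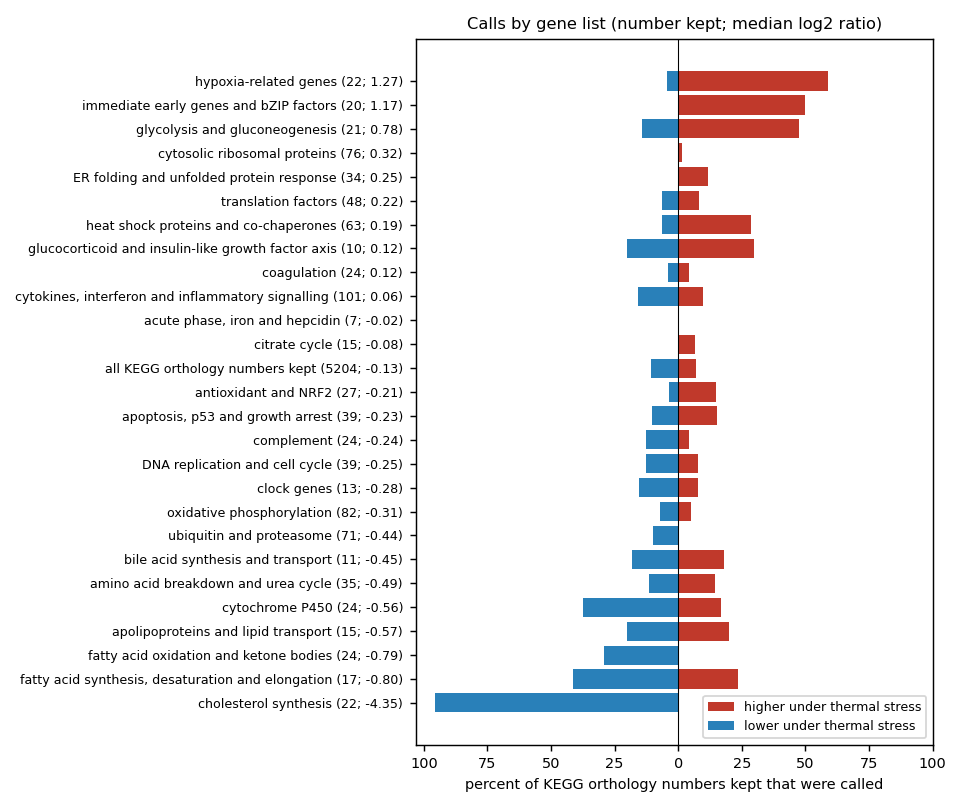
Share of each gene list called higher (red bars, to the right) or lower (blue bars, to the left) under thermal stress against normal feeding, as percent of the KEGG orthology numbers kept, with the number kept and the median log2 ratio after each name. The hypoxia-related genes reached 59.1% higher and the cholesterol synthesis genes 95.5% lower, against 6.88% higher and 10.8% lower over all 5204 numbers.

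Gene names follow the KEGG orthology number, which can also hold unigenes matched to other genes. For the numbers called, it is said where the best protein hit of the main unigene named another gene.

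Heat shock proteins and their co-chaperones were among the transcripts that differed most. Of the 66 list members 63 were kept. Of these, 18 (28.6%) were higher and 4 (6.35%) lower, against 6.88% and 10.8% of all numbers. The median log2 ratio was 0.19 against -0.13 over all numbers. With TMM scaling 22 of the 63 were higher and 3 lower. The genes of the heat shock transcription factors themselves gave few fragments: HSF1 had 46 under normal feeding and 45 under thermal stress, HSF2 had 85 and 66, and none of the 3 factors kept was called.

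The summed values of the large chaperone families hid the pattern of their members. The KEGG orthology number of cytosolic HSP70 (K03283) had 18655 fragments under normal feeding, 41931 under thermal stress, 23002 under cold stress and 43648 under fasting, which is a 2.19-fold difference (2.16 to 2.23) between the first 2 libraries. It holds 21 unigenes, and the 9 with 100 or more fragments in either library are described here. Of these 9, 7 had 6 to 38 fragments under normal feeding and so reached 100 only in the thermal stress library. The other 12 unigenes summed to 267 fragments under normal feeding and 114 under thermal stress. Most of the fragments came from CL1261.Contig4, whose best hit is the constitutive cognate protein HSC70-1. This unigene stood at 422, 803, 525 and 922 FPKM (fragments per kilobase of unigene per 1000000 fragments) under normal feeding, thermal stress, cold stress and fasting, a 1.90-fold difference (1.87 to 1.94) that was not called. Unigene24157, matched to heat shock 70 kDa protein 14, had 1206 and 995 fragments under normal feeding and thermal stress (log2 ratio -0.31, not called). CL1261.Contig2, matched to HSC71, had 25 and 117 (4.57-fold higher, 2.95 to 7.35).

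The unigenes matching inducible HSP70 were low outside thermal stress. Unigene7502 had 10 fragments under normal feeding, 2098 under thermal stress, 52 under cold stress and 14 under fasting, which was 205-fold higher under thermal stress than under normal feeding (111 to 428). CL1261.Contig1, with the same best hit, had 9, 1637, 41 and 19 fragments in the same order, a 178-fold difference (93.3 to 389). Unigene27502 had 10, 842, 21 and 11 fragments (82.2-fold, 44.5 to 172). In FPKM these 3 unigenes went from 0.810, 0.665 and 1.5 to 166, 118 and 123, levels that were still below the 803 FPKM of HSC70-1 in the same library. CL877.Contig1, annotated under the same number with an uncharacterized best hit, was 151-fold higher (69.0 to 412). The cognate form HSC70-2 behaved unlike HSC70-1. Unigene16909 had 38, 1415, 18 and 86 fragments (36.4-fold, 26.4 to 51.6) and Unigene30049, also matched to a cognate isoform 2, had 14, 532, 7 and 34 (37.1-fold, 21.9 to 68.3). Several of these unigenes were short, 215 to 774 bases for those matched to inducible HSP70 or uncharacterized, and whether they are pieces of the same transcript cannot be told from the tables. Fasting, in contrast, had its HSP70 fragments in HSC70-1 (41633 fragments), while Unigene7502 stayed at 14.

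HSP90 showed the same division between a constitutive and an inducible form. HSP90-beta (CL753.Contig3) stood at 672, 1104, 742 and 1124 FPKM under normal feeding, thermal stress, cold stress and fasting, and its 1.64-fold difference (1.62 to 1.66) was not called. The 4 other HSP90 unigenes with 100 or more fragments, of which 3 matched HSP90-alpha and 1 an unnamed product, had 8 to 16 fragments under normal feeding and so reached 100 only under thermal stress. Their ratios were 64.3- to 94.2-fold. The remaining 5 unigenes of the number summed to 16 and 30 fragments. The largest ratio was that of Unigene5713, with 14 fragments under normal feeding, 1351 under thermal stress, 9 under cold stress and 7 under fasting (94.2-fold, 56.0 to 173). Summed, the HSP90 number (K04079) went from 35187 to 63192 fragments, 1.75-fold (1.73 to 1.78) and not called. A homologue of AHSA1, the activator of the HSP90 ATPase, had 104, 358, 104 and 55 fragments (3.36-fold, 2.69 to 4.22).

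Among the small heat shock proteins, 1 gene had no fragment at all under normal feeding. The number named heat shock 27kDa protein 6 (K09545) consists of Unigene19196, whose best hit is Hsp30B, a fish small heat shock protein. It had 0 fragments under normal feeding, 2094 under thermal stress, 15 under cold stress and 0 under fasting. Against a floor of 3 fragments, this was 681-fold higher under thermal stress, and the lower end of the counting interval was 554-fold. HSP27 (K04455), which binds denatured proteins and actin, had 24, 1292, 65 and 153 fragments over its unigenes (52.6-fold, 35.2 to 82.3). The number of heat shock 22kDa protein 8 had 563 and 976 fragments (1.69-fold, 1.52 to 1.88) and was not called. Its unigenes differed, with CL1209.Contig2 higher (154 to 560 fragments, 3.55-fold, 2.97 to 4.27) and CL1209.Contig1 at 409 and 416. The alpha B crystallin number, 1 of the 4 lower members, had 15 fragments under normal feeding and 0 in each of the other 3 libraries, and its best hit was a silkworm protein. It passed the minimum only through the normal feeding library and could not have been called higher.

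**Figure D2:**
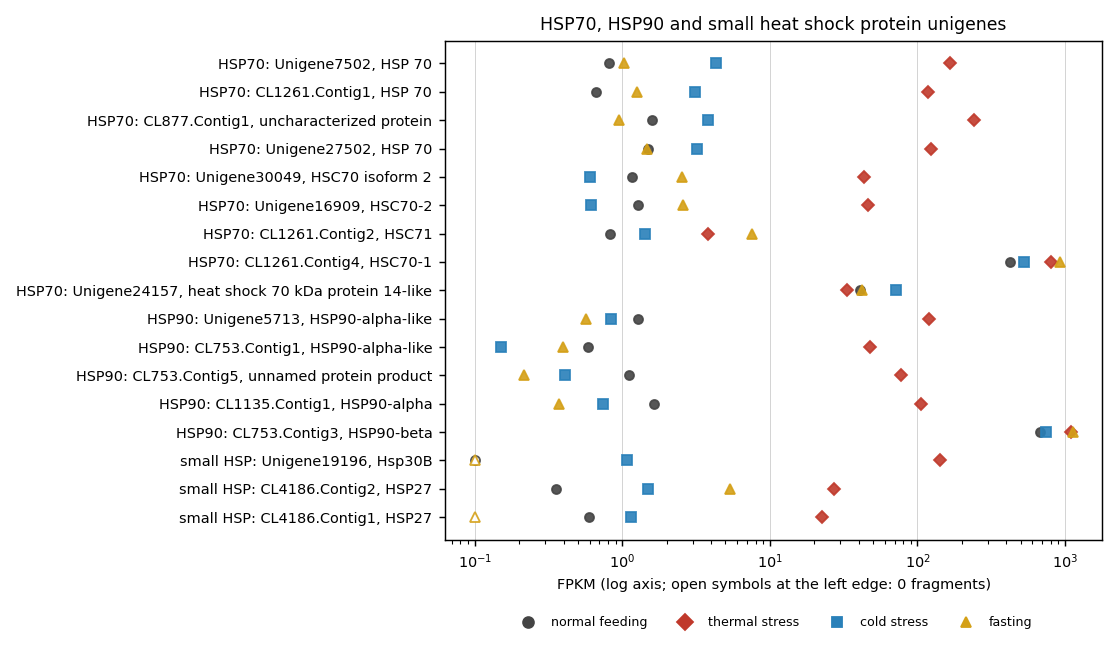
FPKM (log axis) of the HSP70, HSP90 and small heat shock protein unigenes with 100 or more fragments under normal feeding or thermal stress, in each of the 4 liver libraries, 1 symbol per library, with open symbols at the left edge for 0 fragments. The diamonds of thermal stress lie far to the right of the other libraries for the inducible forms, such as Unigene7502 (166 FPKM against 0.810 under normal feeding), while HSC70-1 and HSP90-beta are high in all 4.

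Among the co-chaperone families, 2 of 5 DNAJA, 1 of 4 DNAJB and 2 of 4 BAG members kept were higher and none was lower. Over all numbers 6.88% were higher and 10.8% lower. The members DNAJA2, DNAJA3, DNAJA5, DNAJB6, BAG1 and BAG4 had log2 ratios between -0.77 and -0.25 and were not called. DNAJB1, the HSP40 that works with inducible HSP70, had 113 fragments under normal feeding, 2532 under thermal stress, 137 under cold stress and 151 under fasting (21.9-fold, 18.1 to 26.7). DNAJA4 had 46, 1356, 67 and 38 (28.8-fold, 21.5 to 39.5), and DNAJA1 had 208, 875, 798 and 115 (4.11-fold, 3.53 to 4.80). For the first pair thermal stress alone was high, while DNAJA1 was about as abundant under cold stress. The nucleotide exchange factor BAG3, which hands HSP70 clients to autophagy, had 52, 505, 91 and 59 fragments (9.48-fold, 7.12 to 12.9), and BAG2 had 428, 1662, 295 and 142 (3.79-fold, 3.41 to 4.23). The number named hsp70-interacting protein, whose only unigene matched the HSP70-binding protein 1, an exchange factor of HSP70, went from 66 to 225 fragments (3.33-fold, 2.52 to 4.45). The number of the HSP90 co-chaperone CDC37, which loads kinases, went from 443 to 1247 (2.75-fold, 2.46 to 3.07). Its unigene matched to CDC37 itself went from 310 to 1090 (3.43-fold, 3.02 to 3.91), and another, matched to a different protein, from 124 to 151. The FKBP4/5 immunophilins had 1048, 3200, 4755 and 327 fragments (2.98-fold, 2.78 to 3.20). The unigene matched to FKBP4 had 320, 1057, 243 and 240 (3.22-fold, 2.84 to 3.67), so that the high value under cold stress came from those matched to FKBP5.

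The collagen chaperone HSP47 (serpin H1) had 424 fragments under normal feeding, 10616 under thermal stress, 104 under cold stress and 243 under fasting (24.4-fold, 22.2 to 27), and had fewer fragments in the cold and fasting libraries than in the control. Of the 8 CCT subunits, 5 (62.5%) were higher and 0 lower, against 6.88% and 10.8% of all numbers. The 5 were theta (2.82-fold), epsilon (2.52-fold), alpha (2.31-fold), delta (2.22-fold) and zeta (2.16-fold). The 8 subunits had a median log2 ratio of 1.13 and a range of 0.85 to 1.5. Their sum was 504 CPM under normal feeding, 1097 under thermal stress, 824 under cold stress and 1226 under fasting. The mitochondrial chaperonin GroEL (HSP60) went from 653 to 1641 fragments (2.45-fold, 2.24 to 2.69), while mitochondrial HSP70 (DnaK) had 1313 and 1477 (1.10-fold, 1.02 to 1.18).

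In other parts of the list no number was called higher. None of the 5 prefoldin subunits was called (median log2 ratio -0.03). Of the 16 numbers of DNAJC proteins, which tie HSP70 to specialised tasks, none was higher and 3 (18.8%) were lower. Over all numbers the shares were 6.88% and 10.8%. The median log2 ratio of the 16 was -0.32. The most abundant of the 3 lower was DNAJC11, a mitochondrial protein. It had 922 fragments under normal feeding and 378 under thermal stress (2.50-fold lower, 2.21 to 2.82). The ratio of DNAJC4 was larger, but it had only 34 and 13 fragments (2.68-fold lower, 1.38 to 5.53). The HSP90 paralogue of mitochondria, TRAP1, had 562 and 359 fragments (log2 ratio -0.68, not called). Sums hid single members here too. In the DNAJC7 number (log2 ratio 0.69, not called), the unigene matched to DNAJC7 itself was 2.28-fold higher (1039 to 2426). Another, matched to tetratricopeptide repeat protein 4, was 2.77-fold lower (474 to 175). The STIP1 number was not called (0.87), but its unigene matched to STIP1 itself was 3.05-fold higher (1193 to 3733).

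**Figure D3:**
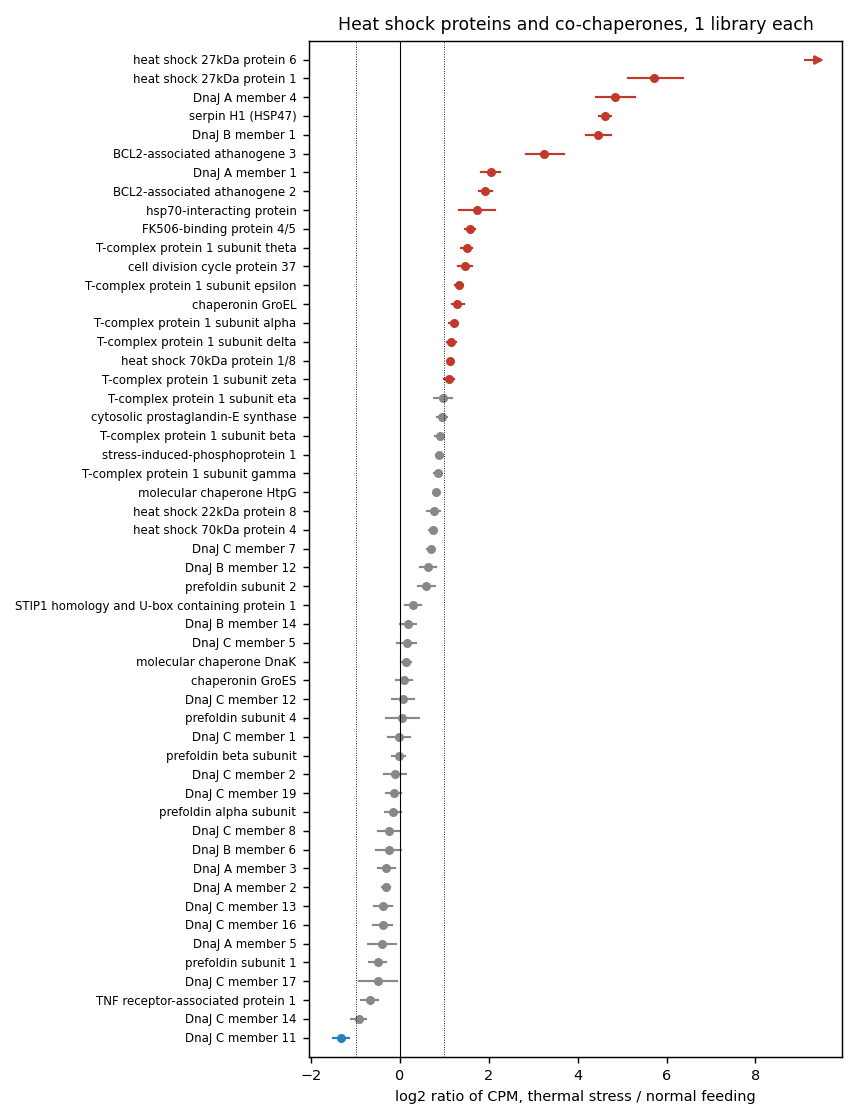
Log2 ratio of CPM, thermal stress over normal feeding, for the heat shock proteins and co-chaperones with 100 or more fragments in either library, with 95% counting intervals as bars, dotted lines at 2-fold and an arrow for the member with 0 fragments under normal feeding. Members called higher are red, such as HSP27 at 5.72, and DNAJC11 at -1.32 is blue for lower. A member could enter through the thermal stress library alone.

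In the endoplasmic reticulum, few genes were called, but these included GRP94, which had the highest FPKM of all chaperones listed. Of 34 members 4 (11.8%) were higher and 0 lower, against 6.88% and 10.8% of all numbers, with a median log2 ratio of 0.25. GRP94 (K09487) is the HSP90 of this compartment. It had 81053 fragments under normal feeding, 230733 under thermal stress, 32812 under cold stress and 12913 under fasting (2.78-fold, 2.76 to 2.80). At 4573 FPKM against 1645 it gained 8244 CPM, the largest gain of any KEGG orthology number. BiP (HSPA5), the HSP70 of the endoplasmic reticulum, which holds the sensors of the unfolded protein response inactive, had 19917, 56077, 723 and 728 fragments (2.75-fold, 2.70 to 2.79). Both were higher under thermal stress, and both had fewer fragments under cold stress and fasting than in the control. ERO1A, the oxidase that reloads protein disulfide isomerase, had 265, 4784, 1081 and 123 fragments (17.6-fold, log2 ratio 4.14 with an interval of 3.96 to 4.32), and ERO1B had 240, 753, 240 and 66 (3.06-fold, 2.65 to 3.56). The other 30 members were not called, and 11 of the list had log2 ratios below 0. Calreticulin had 35619 and 59233 fragments (log2 ratio 0.70), PDIA4 25919 and 43310 (0.71) and HYOU1 1954 and 3603 (0.85), while SEC61 beta had 7857 and 6487 (-0.31) and DNAJB11 2064 and 1457 (-0.54). The transcription factors of the unfolded protein response were likewise not called, with log2 ratios of 0.54 for XBP1, 0.37 for ATF4 and 0.07 for ATF6.

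Among the 27 gene lists, cell type markers left aside, genes linked to low oxygen had the largest share of higher calls. Of 22 members, 13 (59.1%) were higher and 1 (4.55%) lower, against 6.88% and 10.8% of all numbers, with a median log2 ratio of 1.27. Some of these, such as ERO1A and ERO1B, also belong to other lists. DDIT4 (REDD1), an inhibitor of mTORC1 that hypoxia and glucocorticoids induce in mammals, had 369 fragments under normal feeding, 20013 under thermal stress, 11882 under cold stress and 139 under fasting (53-fold, 47.8 to 58.9). It was thus high under both temperature stresses and low under fasting. Its Unigene19848 carried 14376 of the thermal stress fragments. Erythropoietin, the hormone of red cell formation, had 7, 205, 24 and 67 fragments (28.6-fold, 13.6 to 72.0).

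The lysyl hydroxylase PLOD1, which modifies collagen, had 133, 1660, 86 and 225 fragments (12.2-fold, 10.2 to 14.7), and the prolyl 4-hydroxylase alpha subunit number had 286, 1101, 203 and 376 (3.76-fold, 3.30 to 4.30). PLOD2, the second lysyl hydroxylase of the list, had 98 and 186 (log2 ratio 0.89) and was not called. The mitophagy receptor BNIP3 had 179, 886, 543 and 11 fragments (4.83-fold, 4.11 to 5.71). Of the reads of PLOD1, the prolyl 4-hydroxylase number and BNIP3, 59.2%, 96.6% and 82.7% could be placed at several positions. Summed over unigenes, FPKM went from 6.38 to 27.5 for PLOD1 and from 22.6 to 52.9 for the prolyl 4-hydroxylase number. The glucose transporters SLC2A3 (GLUT3) and SLC2A1 (GLUT1) went from 22 to 150 (6.66-fold, 4.24 to 10.9) and from 365 to 919 fragments (2.46-fold, 2.18 to 2.78). The prolyl hydroxylase that marks hypoxia-inducible factor for destruction went from 1332 to 3224 (2.36-fold, 2.22 to 2.52). The factors themselves were not called: HIF1A had 923 and 1654 fragments (log2 ratio 0.81) and HIF2A had 393 and 339 (-0.25). Nor were VEGFA (714 and 626, -0.22) and adrenomedullin (8156 and 10281, 0.30), which are hypoxia targets in mammals.

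Glycolysis differed at most of its steps. Of the 21 genes of glycolysis and gluconeogenesis, 10 (47.6%) were higher and 3 (14.3%) lower, against 6.88% and 10.8% of all numbers. Their median log2 ratio was 0.78. Aldolase, which splits fructose bisphosphate, had 13695 fragments under normal feeding, 102405 under thermal stress, 52164 under cold stress and 298632 under fasting (7.30-fold, 7.17 to 7.43). Triosephosphate isomerase had 2889, 14288, 4245 and 5341 (4.83-fold, 4.64 to 5.03) and phosphofructokinase, the committed step, 298, 1457, 305 and 248 (4.77-fold, 4.21 to 5.43). Phosphofructokinase and triosephosphate isomerase were highest under thermal stress, whereas aldolase was highest under fasting. The 2 GAPDH numbers were higher 2.27-fold (20815 to 48305 fragments) and 5.79-fold (322 to 1909). Glucose-6-phosphate isomerase, phosphoglycerate mutase, pyruvate kinase and lactate dehydrogenase were higher by 2.16- to 2.99-fold. Phosphoglycerate kinase (log2 ratio 0.19), hexokinase (0.23) and enolase (0.78) were not called.

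Where pyruvate enters the mitochondrion, values went the other way. The alpha subunit of pyruvate dehydrogenase E1 had 3191 fragments under normal feeding, 499 under thermal stress, 2170 under cold stress and 627 under fasting (6.55-fold lower, 5.96 to 7.21), and the beta subunit had 1467, 680, 2333 and 761 (2.21-fold lower, 2.02 to 2.42). A unigene matched to Brain protein 44, the mitochondrial pyruvate carrier subunit, had 6819, 1481, 5963 and 3828 fragments (log2 ratio -2.24). The inhibitory kinases were split, with the general pyruvate dehydrogenase kinase number 2.22-fold higher (1127 to 2567) and isoform 1 2.32-fold lower (263 to 116). The gluconeogenic enzymes were not called (log2 ratios of -0.62 for phosphoenolpyruvate carboxykinase, 0.28 for fructose bisphosphatase and 0.75 for glucose-6-phosphatase). Pyruvate carboxylase, also not called, lay closest to the 2-fold limit among them (692 to 362 fragments, log2 ratio -0.97).

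Among the 27 gene lists, cell type markers left aside, the one with the median furthest from 0 was cholesterol synthesis, where every enzyme was lower in the thermal stress library. Of 22 members, 0 were higher and 21 (95.5%) were lower, with a median log2 ratio of -4.35. With TMM scaling 20 were lower and with median-of-ratios scaling 19. The list summed to 3437 CPM under normal feeding, 322 under thermal stress, 1556 under cold stress and 263 under fasting. Thermal stress at 12 h thus stood near the level of the fish fasted for 21 days, and cold stress lay between them and the control.

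Squalene monooxygenase, a rate-limiting step, had 2298 fragments under normal feeding, 26 under thermal stress, 491 under cold stress and 0 under fasting (90.5-fold lower under thermal stress than under normal feeding, 61.6 to 139). Lanosterol synthase, which closes the sterol rings, had 1425, 21, 280 and 11 (69.5-fold lower, 45.3 to 113), and farnesyl diphosphate synthase had 5734, 110, 157 and 67 (53.4-fold lower, 44.2 to 65.1). At the head of the pathway, HMG-CoA synthase had 8202, 255, 3725 and 128 fragments (32.9-fold lower, 29.1 to 37.5), and HMG-CoA reductase, the target of statins, had 2447, 182, 1058 and 189 (13.8-fold lower, 11.8 to 16.1). Near its end, lathosterol oxidase had 8453, 247, 3611 and 182 (35.1-fold lower, 30.9 to 39.9) and 7-dehydrocholesterol reductase had 1847, 148, 1125 and 272 (12.8-fold lower, 10.8 to 15.2). The sizes differed within the pathway. The smallest differences among the enzymes were those of phosphomevalonate kinase (2.06-fold lower, 1.83 to 2.31), methylsterol monooxygenase (3.23-fold lower, 3.03 to 3.45) and mevalonate kinase (3.71-fold lower, 2.52 to 5.59).

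Of the regulators in the list, SREBF2, the factor that drives these genes in mammals, went from 780 to 215 fragments (3.72-fold lower, 3.19 to 4.34) and SREBF1 from 420 to 195 (2.21-fold lower, 1.86 to 2.63). The LDL receptor, a target of SREBP in mammals and the only member not called, had 2072, 1711, 5434 and 704 fragments (log2 ratio -0.31). INSIG1, the sterol sensor that retains SREBP in the endoplasmic reticulum, had 774, 3663, 4928 and 91 fragments in its longer unigene (4.62-fold higher, 4.27 to 5.0), opposite to the enzymes. A homologue of the ergosterol biosynthetic protein 28, a scaffold of the sterol demethylation enzymes in yeast, carried no KEGG orthology number and had 1319, 21, 380 and 64 fragments (64.3-fold lower, 41.9 to 104).

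**Figure D4:**
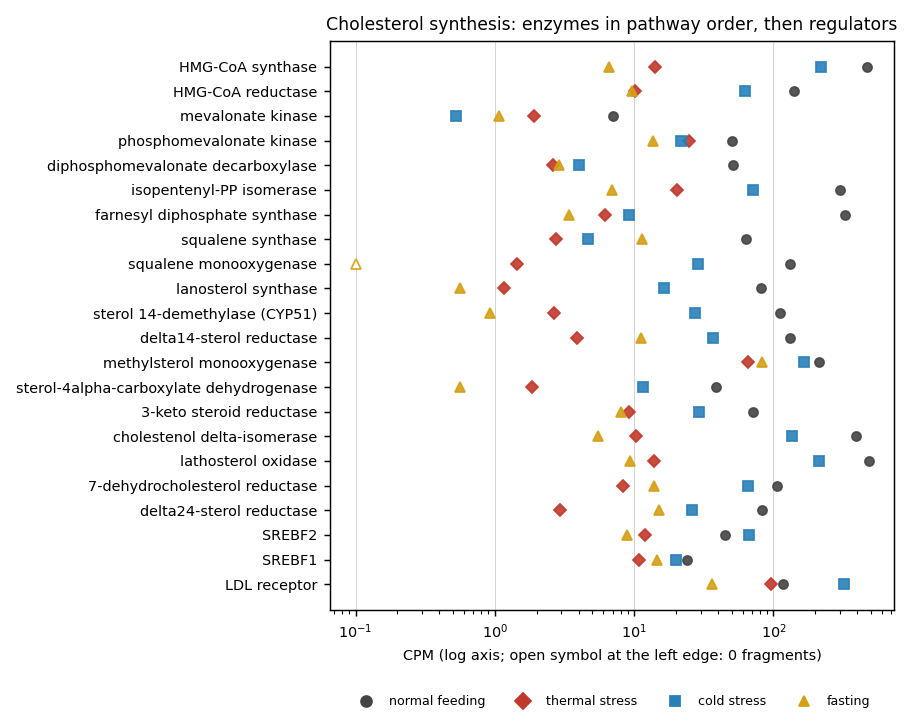
CPM (log axis) of the 22 members of the cholesterol synthesis list in each of the 4 liver libraries, enzymes in pathway order from the top, then SREBF2, SREBF1 and the LDL receptor, with an open symbol at the left edge for 0 fragments. Normal feeding is the highest library for every enzyme, and thermal stress lies close to fasting (322 and 263 CPM in all, against 3437).

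Fatty acid metabolism was mixed. In the synthesis list 4 of 17 genes (23.5%) were higher and 7 (41.2%) lower (median log2 ratio -0.80), against 6.88% and 10.8% of all numbers. The mitochondrial citrate carrier, which supplies the carbon, had 3505, 549, 836 and 3271 fragments under normal feeding, thermal stress, cold stress and fasting (6.54-fold lower, 5.97 to 7.17). ATP citrate lyase, which splits that citrate, went from 2427 to 799 (3.11-fold lower, 2.87 to 3.37) and the elongase ELOVL6 from 874 to 184 (4.87-fold lower, 4.15 to 5.74). FADS6 and stearoyl-CoA desaturase were 3.26-fold (2.22 to 4.91) and 2.05-fold (1.95 to 2.15) higher. The FADS2 number had 6161, 31206, 11529 and 10692 fragments (4.95-fold, 4.81 to 5.08), but nearly all came from Unigene29898, matched to a cytochrome b5. The only unigene of the number with 10 or more fragments that matched fatty acyl desaturase 2 itself had 13 under normal feeding and 0 in the other libraries. DGAT1, which completes triglycerides, went from 203 to 947 (4.55-fold, 3.91 to 5.33). Its FPKM summed over unigenes went only from 7.75 to 13.1, and 91.0% of its reads could be placed at several positions. In fatty acid oxidation 7 of 24 genes (29.2%) were lower and 0 higher (median -0.79), against 10.8% and 6.88% of all numbers. The largest differences were those of acetyl-CoA acetyltransferase (2093 to 447, 4.80-fold lower, 4.33 to 5.32) and long-chain acyl-CoA dehydrogenase (1131 to 303, 3.82-fold lower, 3.36 to 4.35). Of the former, 1854 fragments under normal feeding and 197 under thermal stress belonged to a unigene matched to the cytosolic form, which in mammals serves cholesterol synthesis.

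Among lipid carriers 3 of 15 were higher and 3 lower, against 6.88% and 10.8% of all numbers. Apolipoprotein A-IV had 79319, 17968, 63420 and 38231 fragments (4.52-fold lower, 4.45 to 4.60) and the liver fatty acid-binding protein FABP1 had 9694, 2548, 5390 and 7636 (3.90-fold lower, 3.73 to 4.07), so that thermal stress was the lowest library for both. FABP7 had 136, 0, 54 and 0 fragments, which was 46.4-fold lower against a floor of 3 fragments, with 37.3-fold as the lower end of the counting interval. The FABP6 number, whose only unigene matched FABP10-A, the basic form of fish liver, had 14613, 40935, 40327 and 50741 (2.73-fold higher, 2.68 to 2.79). In bile acid handling 2 of 11 (18.2%) were higher and 2 (18.2%) lower, against 6.88% and 10.8% of all numbers. Among them were CYP8B1, which sets the cholic acid share in mammals (2473 to 814, 3.11-fold lower, 2.87 to 3.37), and SHP, a repressor of it in mammals (493 to 1077, 2.13-fold higher, 1.92 to 2.38).

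In amino acid breakdown 5 of 35 genes (14.3%) were higher and 4 (11.4%) lower (median -0.49), the latter near the 10.8% of all numbers. Among uniquely placed reads 7 were lower. Tyrosine aminotransferase, a glucocorticoid-induced liver enzyme in mammals, had 15296, 43755, 104150 and 14952 fragments (2.79-fold higher, 2.74 to 2.84), and was highest under cold stress. Cysteine dioxygenase, the entry to taurine, had 4704, 17210, 12930 and 585 (3.57-fold higher, 3.46 to 3.69), and threonine dehydrogenase had 2184, 7468, 4017 and 1034 (3.34-fold higher, 3.18 to 3.50). The 4 lower genes included CAD, an enzyme of pyrimidine synthesis that the list's terms also matched (165 to 75, 2.25-fold lower, 1.71 to 3.0). Glycine dehydrogenase had 1770, 310, 952 and 2424 fragments (5.85-fold lower, 5.18 to 6.62), the sarcosine dehydrogenase number 245, 52, 78 and 541 (4.83-fold lower, 3.57 to 6.64) and choline dehydrogenase 411, 101, 192 and 878 (4.17-fold lower, 3.35 to 5.23).

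Mitochondrial respiration as a whole differed little. In the citrate cycle 1 of 15 genes (6.67%) was higher (fumarate hydratase, 820 to 1817, 2.16-fold, 1.99 to 2.35) and 0 lower, against 6.88% and 10.8% of all numbers. In oxidative phosphorylation 4 of 82 (4.88%) were higher and 6 (7.32%) lower, below the shares of all numbers, with a median log2 ratio of -0.31. Cytochrome c oxidase subunit 6b had 2508, 14059, 6080 and 1153 fragments (5.47-fold, 5.24 to 5.71) and subunit 4 had 2868, 8515, 5808 and 10533 (2.90-fold, 2.78 to 3.02). The 6 lower calls differed in their best hits. NADH dehydrogenase chain 5, encoded by mitochondrial DNA, was lower (10470 to 3180 fragments, 3.37-fold, 3.24 to 3.51), nearly all of it in a croaker unigene. The numbers of cytochrome c oxidase subunit 3, ATP synthase subunit a and NADH dehydrogenase chains 3 and 6 had 18 to 154 fragments under normal feeding and 0 to 5 under thermal stress, and every unigene of theirs with 10 or more fragments in either library had its best hit in an earthworm or a moth. The remaining lower number consisted almost wholly of a unigene matched to sex hormone-binding globulin (1085 to 282).

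Of the 20 immediate early genes and bZIP factors kept, 10 were higher and 0 lower, against 6.88% and 10.8% of all numbers. Their median log2 ratio was 1.17. ATF3, a stress-induced repressor, had 11 fragments under normal feeding, 263 under thermal stress, 49 under cold stress and 25 under fasting (23.3-fold, 12.8 to 47.3). The FOSL1 number, whose unigene matched FOSL2 (fos-related antigen 2), had 64, 814, 1453 and 8 (12.4-fold, 9.62 to 16.3) and tribbles, a pseudokinase, 337, 2243, 2702 and 197 (6.5-fold, 5.79 to 7.31). The latter pair was higher still under cold stress, whereas ATF3 was highest under thermal stress. Among genes of apoptosis and growth arrest 6 of 39 (15.4%) were higher and 4 (10.3%) lower, the latter near the 10.8% of all numbers. The survival factor MCL1 went from 1666 to 6510 (3.82-fold, 3.61 to 4.03) and the GADD45 number from 541 to 1819 (3.28-fold, 2.98 to 3.62), while p53 went from 106 to 48 (2.26-fold lower, 1.59 to 3.25) and caspase 6 from 148 to 61 (2.49-fold lower, 1.83 to 3.41).

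In the glucocorticoid and growth factor axis 3 of 10 were higher and 2 lower, against 6.88% and 10.8% of all numbers. The number named for IGFBP3 had 5317, 12642, 44943 and 7017 fragments (2.32-fold higher, 2.25 to 2.40), but it joins several carriers of insulin-like growth factors. Of its unigenes, Unigene25940 and CL1693.Contig1 matched IGFBP1, which binds these factors in the blood, with 379, 4593, 7952 and 133 fragments (11.8-fold higher, 10.7 to 13.2) and 1169, 4665, 28268 and 614 (3.90-fold higher, 3.65 to 4.16). The IGFBP4 unigene had 2196 and 1671 (log2 ratio -0.43), and the one matched to IGFBP3 itself only 21 and 46. The insulin receptor substrate had 1540, 3756, 6807 and 1308 (2.38-fold higher, 2.24 to 2.53). The IGFBP1 unigenes and the substrate were higher under cold stress than under thermal stress. The glucocorticoid receptor had 304, 148, 190 and 655 (2.10-fold lower, 1.72 to 2.58) and IGF2 297, 141, 248 and 306 (2.16-fold lower, 1.76 to 2.66), and these last differences fell below 2-fold with TMM scaling. In the clock list 1 of 13 (7.69%) was higher and 2 (15.4%) lower, against 6.88% and 10.8% of all numbers. The higher was BHLHE40 (216 to 921, 4.16-fold, 3.59 to 4.85). The cold-inducible RNA-binding protein had 729 fragments under normal feeding, 259 under thermal stress, 1208 under cold stress and 626 under fasting (2.88-fold lower under thermal stress, 2.50 to 3.34), although 99.0% of its reads could be placed at several positions.

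Cytokine and interferon genes were called in both directions. Of 101 cytokine, interferon and inflammatory genes 10 (9.90%) were higher and 16 (15.8%) lower, against 6.88% and 10.8% of all numbers. With TMM scaling 14 were higher and 13 lower, and with median-of-ratios scaling 15 and 13. Interleukin 1 beta had 10, 176, 33 and 1 fragments (17.2-fold higher, 9.13 to 36.5), the interferon gamma-induced GTPase number, matched to the interferon-inducible GTPase 5, 7, 162, 20 and 16 (22.6-fold higher, 10.7 to 57.1) and the chemokine CCL20 9, 62, 29 and 2 (6.73-fold higher, 3.32 to 15.4). This GTPase and CCL20 passed the minimum of 10 only through the thermal stress library and could not have been called lower. Of the lower genes, the interferon-induced Mx1 had 173, 21, 1449 and 112 fragments (8.44-fold lower, 5.35 to 14), the RNA sensor MDA5 went from 363 to 135 (2.75-fold lower, 2.25 to 3.38) and IRF3 from 131 to 48 (2.80-fold lower, 1.99 to 3.98). The leukocyte markers were not called and summed to 673 CPM under normal feeding and 391 under thermal stress, and in bulk tissue fewer cells of a type cannot be told from less RNA per cell.

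In complement 1 of 24 genes (4.17%) was higher and 3 (12.5%) lower, near the shares of all numbers. C7, of the membrane attack complex, had 67744, 141663, 76419 and 8664 fragments (2.04-fold, 2.02 to 2.06), the complement receptor type 2 number, mostly a unigene with an unnamed best hit, went from 2425 to 868 (2.86-fold lower, 2.65 to 3.10) and the C1q chain C from 687 to 251 (2.80-fold lower, 2.42 to 3.25). In coagulation 1 of 24 (4.17%) was higher and 1 (4.17%) lower, below the shares of all numbers. The higher was the PAI-1 number (208 to 535, 2.51-fold, 2.14 to 2.96), whose main unigene matched the related inhibitor protease nexin 1. The lower was factor XI (41008 to 20638, 2.04-fold, 2.0 to 2.07), whose difference was below 2-fold with TMM scaling. None of the 7 acute phase and iron genes with a KEGG orthology number was called, and transferrin, the most abundant, had 1029474 and 968735 fragments (log2 ratio -0.12). Hepcidin, the peptide hormone that limits iron export and has antimicrobial forms in fishes, carried no such number, and its unigenes were looked up after the values had been seen. Unigene20901 had 9285 fragments under normal feeding, 74596 under thermal stress, 31437 under cold stress and 233 under fasting, 7.84-fold higher under thermal stress than under normal feeding (7.68 to 8.02). The other hepcidin unigenes, Unigene17625 with 10708 and 7090 fragments under normal feeding and thermal stress (log2 ratio -0.63) and Unigene30277 with 2646 and 1930 (-0.49), were not called. The largest losses in CPM were of the collectin-12 number, apolipoprotein A-I, complement C3, transferrin and ceruloplasmin, at log2 ratios between -0.87 and -0.12, none of them called.

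Most genes of protein synthesis and breakdown were not called. Of 76 cytosolic ribosomal proteins 1 (1.32%) was higher and 0 lower, against 6.88% and 10.8% of all numbers. The higher was S26 (32 to 100 fragments), and 99.8% of its reads could be placed at several positions. Log2 ratios were above 0 for 73 of the 76 and below 0 for 3, with a median of 0.32. The list summed to 73001 CPM under normal feeding and 90226 under thermal stress. Among 48 translation factors 4 (8.33%) were higher and 3 (6.25%) lower, against 6.88% and 10.8% of all numbers. The kinase of elongation factor 2, which slows elongation, had 224 and 582 fragments (2.54-fold higher, 2.17 to 2.97) and initiation factor 6 had 544 and 230 (2.42-fold lower, 2.07 to 2.84). Of 71 ubiquitin and proteasome genes 0 were higher and 7 (9.86%) lower, near the 10.8% of all numbers, with a median of -0.44. With TMM scaling 4 were lower and with uniquely placed reads 9. Among the 7 were the 20S subunit beta 9 (114 to 34, 3.43-fold lower, 2.32 to 5.20) and the activator PA28 beta (682 to 270, 2.59-fold lower, 2.24 to 2.99). Of 27 antioxidant genes 4 (14.8%) were higher and 1 (3.70%) lower, against 6.88% and 10.8% of all numbers. The higher were led by the peroxiredoxin 1 number, matched to peroxiredoxin 2, which like it removes hydrogen peroxide, with 1622, 9619, 2366 and 4369 fragments (5.79-fold higher, 5.49 to 6.11). The autophagy adaptor sequestosome 1 had 166, 607, 1240 and 169 (3.57-fold higher, 3.0 to 4.26). In the cytochrome P450 list 4 of 24 (16.7%) were higher and 9 (37.5%) lower, against 6.88% and 10.8% of all numbers. With TMM scaling 7 of 24 were lower, and with uniquely placed reads 7 of 23. The largest fall was that of CYP51 (1958 to 48 fragments), an enzyme of sterol synthesis that is also counted in the cholesterol list. CYP27B1, which activates vitamin D, went from 43 to 205 (4.65-fold higher, 3.34 to 6.63), and the CYP2F number, matched to the fish form CYP2K1, from 1563 to 393 (4.07-fold lower, 3.64 to 4.56). In DNA replication and cell cycle 3 of 39 were higher (7.69%) and 5 lower (12.8%), close to the shares of all numbers (3 lower with TMM scaling and 8 with uniquely placed reads), with the helicase subunit MCM8 at 64 and 9 fragments (7.28-fold lower, 3.61 to 16.6).

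Several of the most changed transcripts lay outside these lists or had no KEGG orthology number. CL2365.Contig2, matched only to a hypothetical protein of a grouper, had 62 fragments under normal feeding, 11050 under thermal stress, 15112 under cold stress and 295 under fasting (174-fold higher, 136 to 227). Unigene5910, matched to the HSP70 and HSP90 co-chaperone SGT-beta, had 8, 619, 16 and 341 (75.5-fold, 38.1 to 176). Of the other 3 higher unigenes chosen by the same rule, 1 matched FAM173B and the others hypothetical proteins, at 33.0- to 65.1-fold. These had 3 to 5 fragments under normal feeding. Like Unigene5910, they passed the minimum only through the thermal stress library and could not have been called lower. Estrogen receptor alpha had 28, 1277, 17 and 758 (44.5-fold, 30.7 to 67.3), and thus was high under thermal stress and fasting and low in the other libraries. Of the unigenes without a number that were lowest, Unigene36351 (159, 0, 0 and 0 fragments) and Unigene36319 (126, 0, 0 and 0) had insect best hits, as did the only unigene of the r-opsin number (217, 0, 0 and 0). Of the 119 unigenes with best hits in moths, butterflies or earthworms, 92 were lower under thermal stress. An uncharacterized fish protein (Unigene30422, with 178, 0, 63 and 72 fragments) and a PRA1 family protein (CL1826.Contig1, with 128, 7, 97 and 41) were also low. Unigene36351, Unigene36319, r-opsin, Unigene30422 and CL1826.Contig1 passed the minimum only through the normal feeding library and could not have been called higher.

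Markers of other cell types were counted beside these results. All 3 islet hormones were higher. They had 1 to 4 fragments each under normal feeding and passed the minimum of 10 only through the thermal stress library. None could therefore have been called lower, and the list was chosen after the values were seen. Glucagon had 3 fragments under normal feeding, 5596 under thermal stress, 940 under cold stress and 0 under fasting (1821-fold, 623 to 8834). Insulin had 4, 511, 595 and 0 (125-fold, 48.4 to 460). Somatostatin had 1, 390, 163 and 0, a log2 ratio of 6.99 against the floor of 3 fragments (interval 6.09 to 13.88). The hormones were present in both temperature stress libraries and nearly or wholly missing in the other pair, while the exocrine enzymes were at like levels under normal feeding and thermal stress. Skeletal muscle markers had 2 of 8 higher, fast troponin I (15, 413, 303 and 149 fragments, 26.9-fold, 16.1 to 48.5) and the slow troponin I number, whose main unigenes matched pleckstrin homology-like proteins instead, and the sum of the 8 was 1620 and 1918 CPM. Red cell markers had 1 of 5 lower, the haemoglobin zeta number (8717 to 3327, 2.68-fold, 2.58 to 2.79), most of it an alpha-type globin unigene (6963 to 1390, 5.13-fold, 4.84 to 5.44). The other red cell markers were not called. Their log2 ratios were 0.23 for 5-aminolevulinate synthase, 0.51 for haemoglobin alpha, -0.15 for haemoglobin epsilon and -0.36 for the anion exchanger. Haemoglobin alpha had only 11 and 16 fragments. The haemoglobin zeta number also holds unigenes matched to cytoglobin, of which CL2788.Contig1 had 14, 421, 241 and 4 fragments (29.4-fold higher, 17.3 to 54.2). Of 20 unigenes chosen by best hit as markers of the female state, 5 were kept and 4 (80.0%) were higher, against 12.4% of all unigenes. Choriogenin H (0 and 12 fragments) passed the minimum only through the thermal stress library and could not have been called lower. The unigene not called matched the vitellogenin receptor (17 and 12 fragments). The 20 summed to 46.4 CPM under normal feeding, 248 under thermal stress, 18.3 under cold stress and 14634 under fasting. The part of these cells, and of sex, in the differences listed above was not tested.

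**Figure D5:**
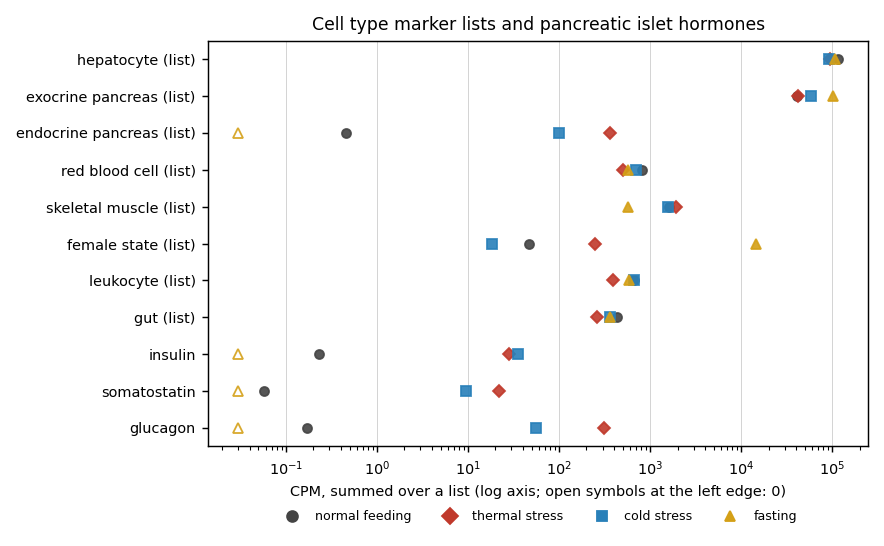
CPM (log axis) summed over each cell type marker list, and for the 3 islet hormones singly, in the 4 liver libraries, 1 symbol per library, with open symbols at the left edge for 0 fragments. Exocrine pancreas sums of normal feeding and thermal stress nearly coincide, and the hepatocyte sums are 116851 and 94275 CPM. The islet hormones lie at 0.457 CPM in all under normal feeding and 363 under thermal stress.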

How the data were processed

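Liver RNA was sequenced on an Illumina HiSeq 2000 from Illumina TruSeq RNA libraries, with 1 library for each of the 4 conditions. The authors assembled the reads de novo (the study's methods name Trinity and its results SOAPdenovo), annotated the unigenes by BLASTx and deposited raw fragment counts and FPKM per unigene. They also deposited counts of uniquely and multiply placed reads. The aligner and counter are not given in the sources used here. Recomputing FPKM (fragments per kilobase of unigene per 1000000 fragments) from the deposited counts gave the deposited values with a largest difference of 0.000050. Tables of the authors' own comparisons (fold changes and p-values) were not used, and 0 per-sample columns were left out. No sequences of the unigenes were used here.

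Fragments were divided by library totals, summed over unigenes by KEGG orthology number (22677 unigenes carried one), and kept with 10 or more in at least 1 of the 2 libraries. A call needed a 2-fold ratio and a 95% exact interval without 1. A ratio against 3 or fewer fragments was bounded with a floor of 3, equal to 0.167 to 0.171 CPM in the 2 libraries. Intervals and floors cover counting error only, and the total of each library sets them. TMM factors (edgeR 4.0.16) and median-of-ratios size factors (DESeq2 1.42.0) were computed over the 4 libraries in R 4.3.3 for scaling only, with no model fitted. Counting intervals came from scipy 1.17.1, tables from pandas 2.3.3 and numpy 2.4.6, and plots from matplotlib 3.10.9 (Python 3.11.15). The calling rule and scaling were tested on simulated data, which for the scaling held counting error only. That test cannot speak to the spread between fish.

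The 27 gene lists and 8 marker lists overlap, and both they and the genes compared were chosen with earlier results of these data known. Genes were named by rule: heat shock list members with 100 or more fragments in either library, the 10 numbers with the largest difference in each direction, the 5 such unigenes with no number, and up to 3 called members of each list in each direction with 50 or more fragments (where none was called, the 2 most abundant). Best protein hits were read for the numbers called. AHSA1, hepcidin, IGFBP1, cytoglobin, leptin, INSIG1, the pyruvate carrier, the islet hormone list, the invertebrate genera, and members given as not called were chosen after their values were seen. The alternatives were other scalings, minimums, folds and read sets.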

Additional observations from a re-analysis of the deposited data

How the results depend on the processing

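The number of calls followed the thresholds. With a fold of at least 1.5, 696 KEGG orthology numbers were higher and 1170 lower, and with a fold of at least 4, 97 and 119. With 100 fragments in at least 1 library, 347 numbers were lower. For unigenes, 10 fragments in each library left 2222 higher and 3034 lower, 100 fragments in at least 1 library 992 and 1257, and a fold of at least 4 left 1752 and 2731. All other settings gave counts within 1.5 times those reported, including totals without pancreatic digestive enzymes, uniquely placed reads and, an alternative added after seeing the data, leaving out the moth, butterfly and earthworm hits (358 and 555 numbers, 4796 and 6790 unigenes). All 129 named numbers that were called kept their direction under the 6 alternatives run on them, and 121 to 129 stayed at 2-fold or more. TMM, median-of-ratios and totals without pancreatic enzymes moved every log2 ratio by the same 0.14, 0.15 and 0.00. A number called at 2-fold could not change direction under these, and hardly with 0.5 fragments added, so their directions are no check. With TMM scaling factor XI (log2 ratio -0.89), the glucocorticoid receptor (-0.93) and IGF2 (-0.97) were among those below 2-fold, and taking only the unigene with the most fragments put HSP70 (0.93), caspase 6 (-0.87) and SHP (0.89) below it. No paired analysis was possible because each condition has 1 library, and for the same reason no library could be left out. Depth limits the rarest genes, since 1 to 3 fragments under normal feeding give the intervals of glucagon and somatostatin their width.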

Other observations

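Single unigenes described here were singled out after their values were seen. A leptin unigene, for a hormone that fishes make largely in the liver, had 254, 954, 313 and 27 fragments under normal feeding, thermal stress, cold stress and fasting (3.67-fold higher under thermal stress than under normal feeding). An MHC class II alpha chain unigene (CL843.Contig2) had 44, 420, 31 and 46 fragments (9.32-fold, 95% counting interval 6.82 to 13.0), whereas the summed MHC class II number of the leukocyte markers had 2106 and 1285 (log2 ratio -0.75).

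Egg envelope transcripts, part of the female state unigenes above, were also present in the thermal stress library, at levels far below those of fasting. A zona pellucida unigene (Unigene16930) had 57 fragments under normal feeding, 1450 under thermal stress, 20 under cold stress and 21779 under fasting. A chorion protein unigene (Unigene1132) had 605, 2384, 205 and 81286, and a choriogenin H unigene 0, 12, 0 and 24406. In each case thermal stress and fasting were above the other pair. The sexes of the fish are not given in the labels.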
